A study of Rattus norvegicus with 24 samples.

Results

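miR-21 is a microRNA (miRNA), a short RNA that pairs with messenger RNAs and lowers their translation or stability. Its members here were taken by name, as every row whose name began with rno-miR-21- in the cortical and the thalamic count tables. Only 2 of the 728 rat miRNAs listed met this rule, rno-miR-21-5p and rno-miR-21-3p, the 5p and the 3p arm of a single hairpin (the species prefix is left out below). No measured value entered the rule, but the members were chosen with earlier results of these data known.

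The libraries held small RNA from the perilesional cortex (the cortex beside the lesion) and the ipsilateral thalamus of 12 adult Sprague-Dawley rats. TBI rats received a lateral fluid-percussion injury, a model of traumatic brain injury that deforms the brain by a brief fluid pressure wave. Control rats were sham-operated, and tissue was taken 3 months after surgery. Each of the 4 groups, sham cortex, TBI cortex, sham thalamus and TBI thalamus, held 6 libraries, and the same 12 rats gave both regions. Per the study's methods, all rats were male, and the injured rats that were sequenced had been selected by MRI for a chronic inflammatory rim beside the lesion, so they were not a random sample of injured rats. Depth, as the sum of miRNA reads, ran from 523298 to 4139901 reads per library.

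A miRNA gene is transcribed into a longer RNA that folds into a hairpin. Drosha and Dicer cut out a duplex of both arms, 1 arm (the guide) is loaded into an Argonaute protein, and the other arm (the passenger) is usually degraded. Bases 2 to 8 of the guide, the seed, decide most of its pairing with targets. miR-21 is known from many tissues as a miRNA that rises with inflammation, growth signals and fibrosis, in reactive astrocytes and microglia among other cells, and the messenger RNA of PDCD4 is among its best known targets.

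The sequences of both arms are shown because the arms differ in their seeds and in the reads they received. RefSeq places the rat hairpin on the minus strand at chr10:71902600-71902691 (GRCr8), a run of 92 bases with 16 bases between the arms. In the hairpin the arms are in capitals, and in the mature miRNAs the seed is.
Mir21 hairpin: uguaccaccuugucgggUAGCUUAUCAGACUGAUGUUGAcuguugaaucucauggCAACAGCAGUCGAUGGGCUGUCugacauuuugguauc
miR-21-5p: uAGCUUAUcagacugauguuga
miR-21-3p: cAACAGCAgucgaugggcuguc
Both arms are 22 bases long. miR-21-5p lies at chr10:71902653-71902674 and miR-21-3p at chr10:71902615-71902636. Among 693 rat mature miRNA names in RefSeq, each of these seeds belonged to 1 name only. Listed miRNAs without a RefSeq sequence were not searched. G and C made up 36.4% of the bases of miR-21-5p and 59.1% of those of miR-21-3p.

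miR-21-5p was among the more abundant miRNAs in every library. It received between 2818 and 59777 reads and ranked between 18 and 46 by read count. With so many reads, the exact 95% binomial interval of its share of miRNA reads had a half-width of 0.797% to 3.7% of the share itself. These intervals cover counting error only, since copies of a molecule made by PCR are not independent. The spread between rats was far wider than that.

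Levels below are normalised CPM, meaning counts scaled to 1000000 miRNA reads after adjustment by TMM, a method that assumes most miRNAs are alike between libraries. In sham cortex miR-21-5p was lowest at 3474 CPM, with a median of 5021 CPM and a highest value of 5894 CPM (4938 ± 820 CPM, mean ± SD, n = 6). In TBI cortex it ran from 3958 CPM through a median of 4665 CPM to 5870 CPM (4773 ± 772 CPM, n = 6). These cortical ranges overlapped almost entirely, and no TBI library lay above the highest sham library.

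In sham thalamus the lowest library had 8109 CPM, the median was 10671 CPM and the highest had 14398 CPM (10989 ± 2169 CPM, n = 6). In TBI thalamus the values ran from 6798 CPM through a median of 10745 CPM to 13104 CPM (10211 ± 2642 CPM, n = 6). Here 2 of 6 TBI libraries lay below the lowest sham library and none above the highest. By mean, the order was thus sham thalamus, TBI thalamus, sham cortex and TBI cortex. The lowest thalamic library of either group was above the highest cortical library, whereas the groups within a region overlapped.

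**Figure D1:**
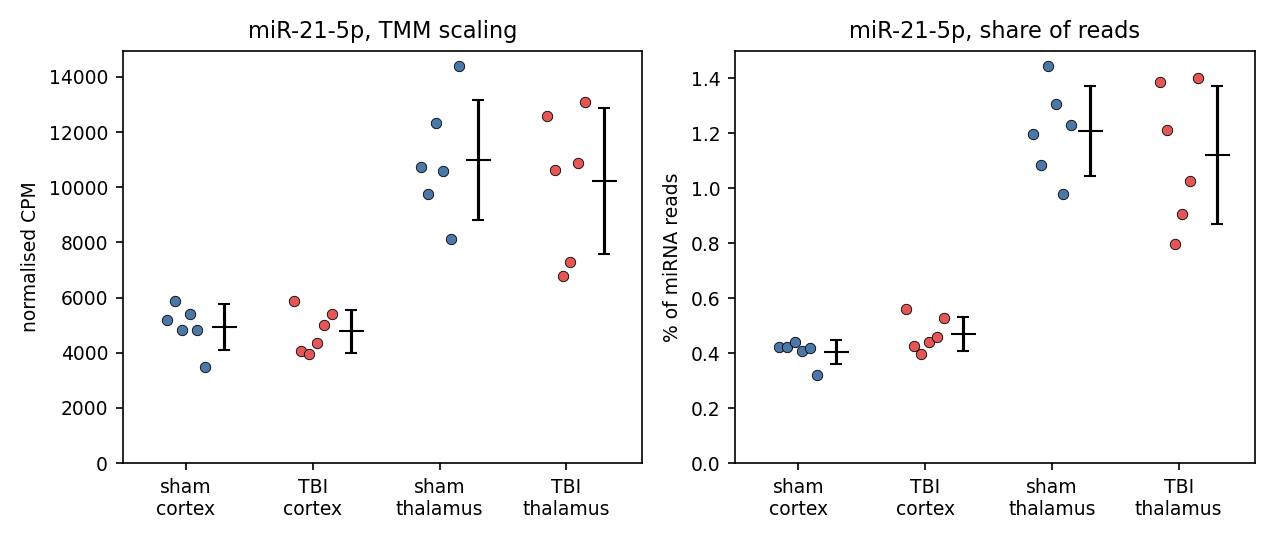
Level of miR-21-5p in each library of the 4 groups (6 points a group, in blue for sham and red for TBI), in normalised CPM on the left and as a percentage of miRNA reads on the right, with mean and SD beside the points. All thalamic libraries lie above all cortical ones on both scales, while sham and TBI overlap within each region.

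The first question was whether the perilesional cortex still had altered miR-21 at 3 months after injury. It was not called changed: the log2 fold change of miR-21-5p, TBI against sham, was -0.01 (SE 0.138, 95% interval -0.30 to 0.29, adjusted p = 0.983 in edgeR), which is a fold of 0.994 with an interval of 0.81 to 1.22. By size of change it ranked 361 of the 371 miRNAs tested, of which 21 passed (5.66%), 11 of them higher (2.96%) and 10 lower (2.7%) in TBI. Because tissue was bulk, fewer cells of a type and less RNA per cell cannot be told apart in any of these values.

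The cortical value depended on the scaling. Without TMM, with library size only, edgeR put miR-21-5p at 0.21 on the log2 scale (adjusted p = 0.255), but the median over all 371 miRNAs then moved by 0.20 as well. Relative to the median of all miRNAs, the change of miR-21-5p was -0.06 with TMM and -0.04 with library size. As a plain share, miR-21-5p took 0.405% ± 0.0427 of the miRNA reads in sham cortex and 0.469% ± 0.0628 in TBI cortex (SD, n = 6). The highest sham library was at 0.44%, and 4 of 6 TBI libraries exceeded it (exact permutation test, two-sided, p = 0.0671). Without TBI rat 45 the exact permutation p was 0.00866, the lowest of 12 such tests, and the highest was 0.134.

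Beside this, the TMM factors ran from 0.718 to 0.923 in sham cortex and from 0.919 to 1.05 in TBI cortex. miR-128-3p, a neuronal miRNA, took by far the most reads of the neuronal list, 331367 ± 87161 CPM in sham and 191513 ± 22415 CPM in TBI cortex (SD, n = 6), and fell by 0.75 on the log2 scale (SE 0.165, adjusted p = 0.0231 in edgeR). The part of these differences in the share of miR-21-5p was not tested.

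The same question was asked of the thalamus, which lies away from the impact and is linked to the injured cortex by axons. The log2 fold change of miR-21-5p was -0.10 (SE 0.209, 95% interval -0.55 to 0.35, adjusted p = 0.944 in edgeR), a fold of 0.933 with an interval of 0.685 to 1.27. It ranked 291 of 390 miRNAs by size of change, and 2 of the 390 passed (0.513%). As a share of miRNA reads it was 1.21% ± 0.164 in sham and 1.12% ± 0.252 in TBI thalamus (SD, n = 6), which gave p = 0.498 in a two-sided exact permutation test. The upper bounds of the 95% intervals with TMM were thus 1.22-fold in cortex and 1.27-fold in thalamus. In cortex the bound was 1.38-fold with library size only and 1.33-fold with 4 reference miRNAs as scale.

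Other miRNAs linked to inflammation were read beside miR-21-5p, from a list of 13 chosen with earlier results of these data known. The study itself had reported miR-146a-5p and miR-155-5p as higher in TBI thalamus, so their calls here are no independent support. Of the 13, 2 of 12 tested were higher in TBI thalamus and none lower, beside 2 of all 390 (0.513%). They were miR-155-5p, which is induced in activated macrophages and microglia, at 1.45 on the log2 scale (SE 0.258), and miR-146a-5p, which restrains NF-kB signalling, at 1.04 (SE 0.198), each with an adjusted p of 0.0207 in edgeR. Their 95% intervals, 0.90 to 2.00 and 0.62 to 1.47, did not overlap that of miR-21-5p. Both calls were lost without single libraries: without sham rat 26, 32 or 34 no miRNA was called in thalamus, and without sham rat 38 only 1 was.

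In cortex none of the 13 was called higher and 1 was lower, beside 11 higher (2.96%) and 10 lower (2.7%) of all 371. The lower 1 was miR-146b-5p, at -0.48 (SE 0.128, adjusted p = 0.0369 in edgeR). That call was lost with library size only, where 3 of the 13 were higher and none lower, beside 36 higher and 3 lower of all 371. With TMM, cortical miR-146a-5p stood at 0.72 (adjusted p = 0.106 in edgeR) and miR-155-5p at 0.84 (adjusted p = 0.191 in edgeR). The most abundant members, let-7i-5p and miR-125b-5p, stood at -0.19 (adjusted p = 0.291) and 0.45 (adjusted p = 0.0532 in edgeR). The list's median was 0.45 in cortex and 0.16 in thalamus, beside 0.05 and -0.03 for all miRNAs tested. With DESeq2, 3 of the list were higher and 1 lower in cortex, beside 26 higher and 15 lower of all 371. In thalamus DESeq2 called 3 of the list higher, beside 3 of all 390.

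**Figure D2:**
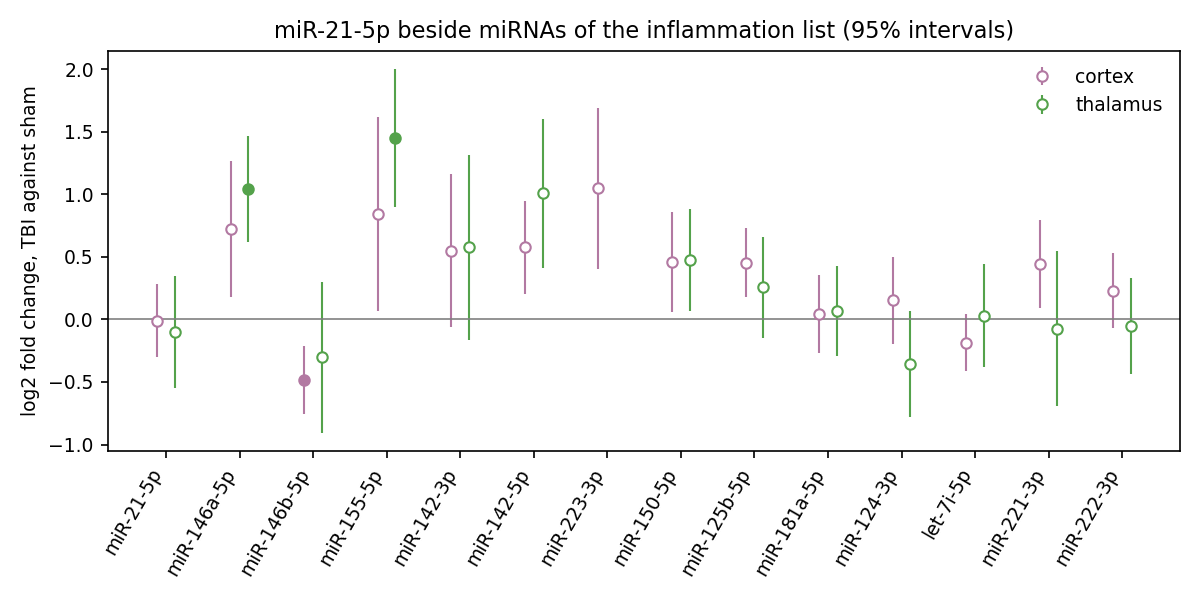
Log2 fold change, TBI against sham, of miR-21-5p and the miRNAs of the inflammation list in cortex (purple) and thalamus (green), with 95% intervals from edgeR and filled points where the adjusted p was under 0.05. miR-21-5p sits at -0.01 and -0.10, and the filled points are miR-146a-5p and miR-155-5p in thalamus and miR-146b-5p in cortex.

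miR-21 is also known from scars and fibrosis, so 10 miRNAs tied to scar and fibrosis were counted. In cortex 1 of 10 was called, beside 21 of all 371 (5.66%), and in thalamus 0 of 9, beside 2 of all 390 (0.513%). The cortical call was miR-199a-3p, a miRNA of mesenchymal cells, higher at 0.80 (SE 0.214, adjusted p = 0.0369 in edgeR). No miRNA was called in cortex with 4 reference miRNAs as scale, and 4 to 30 were without single libraries. The most abundant of the 10 were miR-143-3p, known from smooth muscle, and miR-29a-3p, which targets collagens. Their cortical log2 fold changes were -0.05 (adjusted p = 0.901 in edgeR) and -0.01 (adjusted p = 0.982 in edgeR). The median of this list was 0.05 in cortex and -0.14 in thalamus, beside 0.05 and -0.03 for all miRNAs tested.

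Markers of other cells were read beside the injury comparisons. The leukocyte and microglial miRNAs, miR-142-3p, miR-142-5p, miR-150-5p and miR-223-3p, summed to 788 to 1282 CPM in sham cortex and 861 to 1872 CPM in TBI cortex. In thalamus the sums were 738 to 1177 CPM in sham and 1031 to 1973 CPM in TBI. Most of each sum was miR-150-5p, with means of 974 CPM in sham and 1293 CPM in TBI cortex. The next, miR-142-5p, had 44.2 and 63.5 CPM there. In edgeR 0 of the 4 were called in cortex and 0 of 3 in thalamus, beside 5.66% and 0.513% of all miRNAs. Medians of the list were 0.56 and 0.58, beside 0.05 and -0.03 for all miRNAs tested. DESeq2 called 2 and 1 of the list higher, beside 26 of 371 and 3 of 390 over all miRNAs. The part of this list in the values of miR-21-5p was not tested.

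Of the remaining lists, 1 of 5 neuronal miRNAs (miR-128-3p) and 1 of 3 muscle miRNAs (miR-1-3p, at -0.62, adjusted p = 0.0361 in edgeR) were lower in TBI cortex. The muscle call was lost with library size only, and 1 of 3 oligodendrocyte miRNAs was then higher in TBI cortex, beside 36 of all 371. The counts with TMM stand beside 5.66% of all miRNAs called in cortex and 0.513% in thalamus. With TMM none of the 3 oligodendrocyte, 4 vessel or 2 red cell miRNAs was called in either region, and in thalamus none of the neuronal or muscle miRNAs was. The epithelial and choroid plexus miRNAs were too low to be tested, with summed levels of 1.58 to 109.5 CPM over all 24 libraries.

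The next comparison asked how miR-21 differs between the 2 regions. miR-21-5p was lower in cortex than in thalamus in both groups. In sham rats the log2 fold change, cortex against thalamus, was -1.21 (SE 0.167, 95% interval -1.56 to -0.85, adjusted p = 4.83e-05 in edgeR), which puts the thalamus 2.31-fold above the cortex (interval 1.81 to 2.95). Of 375 miRNAs tested, 91 passed (24.3%), with 50 lower (13.3%) and 41 higher (10.9%) in cortex. In TBI rats the log2 fold change was -1.22 (SE 0.175, 95% interval -1.59 to -0.85, adjusted p = 0.000201 in edgeR), a thalamic level 2.33-fold above the cortical one (interval 1.80 to 3.02). There 81 of 386 passed (21%), with 51 lower (13.2%) and 30 higher (7.77%) in cortex, a balance that turned to 25 lower and 37 higher with 4 reference miRNAs as scale and to 45 and 49 without the filter.

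Many other miRNAs differed between the regions by as much or more. Among those called lower in cortex, miR-21-5p held place 26 of 50 by size in sham and 20 of 51 in TBI rats. By rank among all miRNAs, miR-21-5p stood at place 38 in both cortical groups, 21 in sham thalamus and 23 in TBI thalamus by mean CPM. In cortex miR-139-5p was next above it in both groups, with 5015 ± 842 CPM in sham and 4847 ± 541 CPM in TBI. The miRNAs next below were miR-411-5p at 4519 ± 707 CPM in sham cortex and miR-127-3p at 4200 ± 197 CPM in TBI cortex.

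In thalamus its upper neighbours were miR-126a-3p of endothelium at 11615 ± 2770 CPM in sham and miR-181b-5p at 11141 ± 2257 CPM in TBI. The lower neighbours there were miR-328a-3p at 10898 ± 3453 CPM in sham and miR-191a-5p at 9926 ± 2847 CPM in TBI (SD, n = 6 throughout). Each of these neighbours differed from miR-21-5p by less than 1 SD of miR-21-5p in that group, so its exact place is not resolved.

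Oligodendrocyte miRNAs moved with the regional difference. miR-219a-5p, miR-219a-2-3p and miR-338-3p, which promote the maturation of myelinating cells, were all 3 lower in cortex in both groups. Beside them, 13.3% of all miRNAs were called lower in sham and 13.2% in TBI rats. The 3 had list medians of -1.75 in sham and -1.57 in TBI rats. Their summed level was 3482 to 4987 CPM over the cortical libraries and 10135 to 17583 CPM over the thalamic ones. miR-219a-2-3p, the most abundant, had log2 fold changes of -1.82 (adjusted p = 4.15e-06 in edgeR) and -1.78 (adjusted p = 8.23e-07 in edgeR). Of 5 neuronal miRNAs, 3 were higher in cortex in each group, beside 10.9% of all miRNAs in sham and 7.77% in TBI rats. They were miR-128-3p and miR-138-5p in both groups, with miR-9a-5p in sham and miR-124-3p in TBI rats. With library size only, 1 of 5 was higher in sham, beside 22 of all 375, and 2 of 5 in TBI rats, beside 29 of all 386. Of the other cell lists, with TMM, 2 of 3 muscle miRNAs were higher in cortex in each group, and 1 of 4 vessel miRNAs in sham only. No leukocyte or red cell miRNA was called between the regions. The part of cell composition in the level of miR-21-5p was not tested.

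Since both regions came from each rat, the ratio could also be read within rats. In sham rats the thalamic level over the cortical level was lowest at 1.65, had a median of 2.01 and was highest at 4.14. In TBI rats the ratio ran from 1.68 through a median of 2.16 to 2.60. All 12 rats had more miR-21-5p in thalamus. The exact permutation test over sign changes gave p = 0.0312 in each group, the smallest that 6 rats allow. With the rat as a block, edgeR gave log2 fold changes of -1.20 in sham (adjusted p = 0.000469) and -1.20 in TBI (adjusted p = 4.47e-07), and the block changed the number of miRNAs called to 150 (81 without it) in TBI and to 81 (91 without it) in sham.

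**Figure D3:**
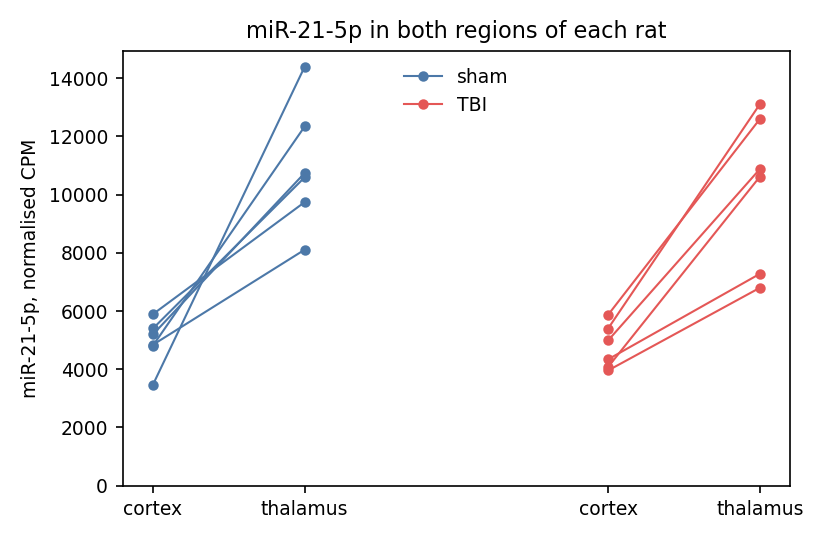
Normalised CPM of miR-21-5p in the cortex and the thalamus of each rat, joined by a line, for 6 sham rats in blue and 6 TBI rats in red. Every line rises from cortex to thalamus, and the steepest is sham rat 55, whose ratio was 4.14.

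The question whether injury acted differently on the 2 regions was put to a fit of all 24 libraries with an interaction term. The difference between the log2 fold changes of cortex and thalamus was 0.06 (SE 0.245, 95% interval -0.45 to 0.56, adjusted p = 0.9997 in edgeR). Of 407 miRNAs 0 passed (0%) in edgeR and 0 in DESeq2, with 16 and 18 at an unadjusted p under 0.05. In normalised CPM, the log2 ratio of thalamus to cortex within rats differed by -0.08 (TBI minus sham; means 1.07 and 1.15), which did not pass (p = 0.792, two-sided exact permutation test).

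On shares of miRNA reads that last comparison read otherwise. The median ratio was 3.03 in sham and 2.35 in TBI rats, with ranges of 2.34 to 3.83 and 2.00 to 2.84 (exact permutation test, two-sided, p = 0.0346). Leaving out 1 rat at a time gave an exact permutation p of 0.0216 to 0.0693, and 6 of the 12 such tests, those without TBI rats 45, 52 or 56 or sham rats 34, 38 or 55, no longer passed. In edgeR with library size only, the interaction was 0.32 (adjusted p = 0.667), while the median of all miRNAs moved by 0.27.

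**Figure D4:**
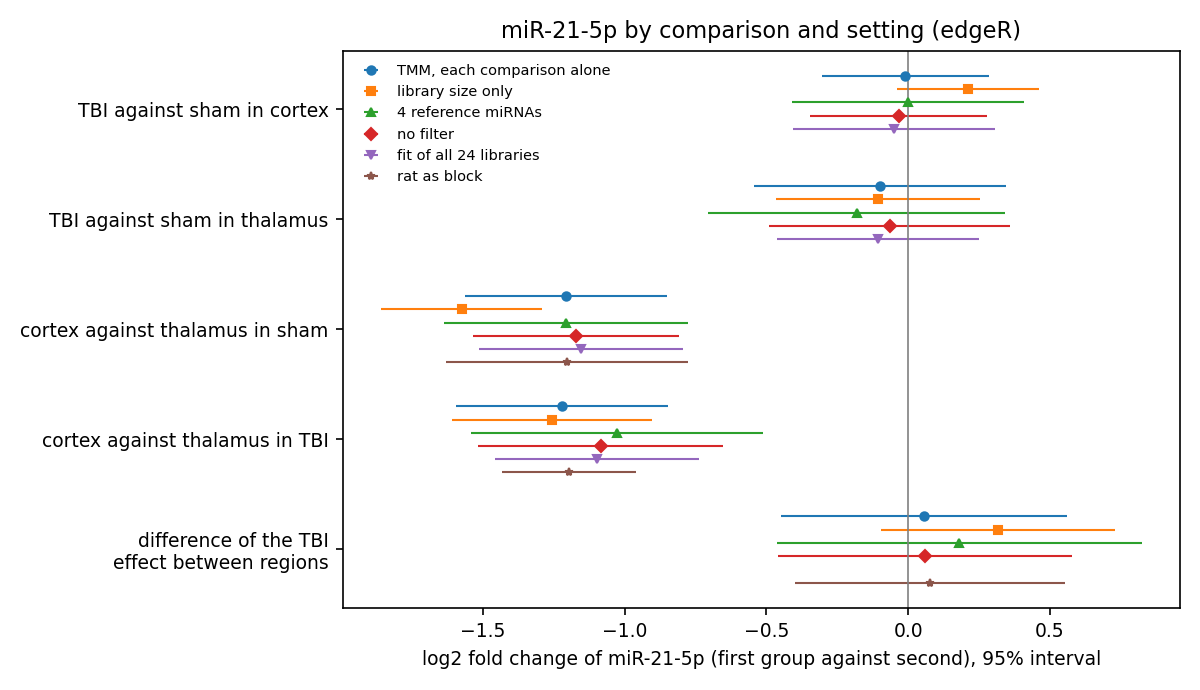
Log2 fold change of miR-21-5p with its 95% interval in 5 comparisons (rows), each under up to 6 ways of scaling, filtering or fitting in edgeR (colours). The regional differences stay below 0 under every setting shown, and the intervals of both injury comparisons and of the interaction include 0.

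The passenger arm was close to the limit of detection. miR-21-3p received 37 reads over all 24 libraries, against 391880 for miR-21-5p, so it made up 0.00944% of the reads of both arms (exact 95% interval 0.00665% to 0.013%). Since both arms are of the same length, no scaling by length was needed. Reads of both arms for 174 hairpins with at least 1000 reads in all, counted by name, put miR-21 in place 9 from the lowest share of the minor arm, where the median hairpin had 2.24%.

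In sham cortex 4 of 6 libraries held miR-21-3p, with 0 to 2 reads and 5 in all. In TBI cortex 1 of 6 held it, with a single read in rat 24. In thalamus 5 of 6 sham libraries held 1 to 10 reads each, 19 in all, and 4 of 6 TBI libraries held 2 to 4 reads each, 12 in all. In the 10 libraries without a read, a count of 0 allows a share of miR-21-3p of up to 0.0206% to 0.0963% of both arms (3 reads).

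Pooled over libraries, miR-21-3p made up 0.00976% of both arms in sham cortex (exact 95% interval 0.00317% to 0.0228%) and 0.00204% in TBI cortex (5.18e-05% to 0.0114%). The pooled shares in thalamus were 0.0127% in sham (0.00762% to 0.0198%) and 0.00848% in TBI (0.00438% to 0.0148%). All 4 intervals overlapped, and they cover counting error only. The overlap is no test of a difference in these shares. Per 1000000 miRNA reads, miR-21-3p was at 0.404 in sham cortex (exact 95% interval 0.131 to 0.943) and 0.0972 in TBI cortex (0.00246 to 0.541). In thalamus it was at 1.58 in sham (0.951 to 2.47) and 0.943 in TBI (0.488 to 1.65). On this scale both cortical intervals lay below that of sham thalamus and overlapped that of TBI thalamus. Sham and TBI overlapped within each region. These intervals too cover counting error only and rest on 1 to 19 reads a group.

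**Figure D5:**
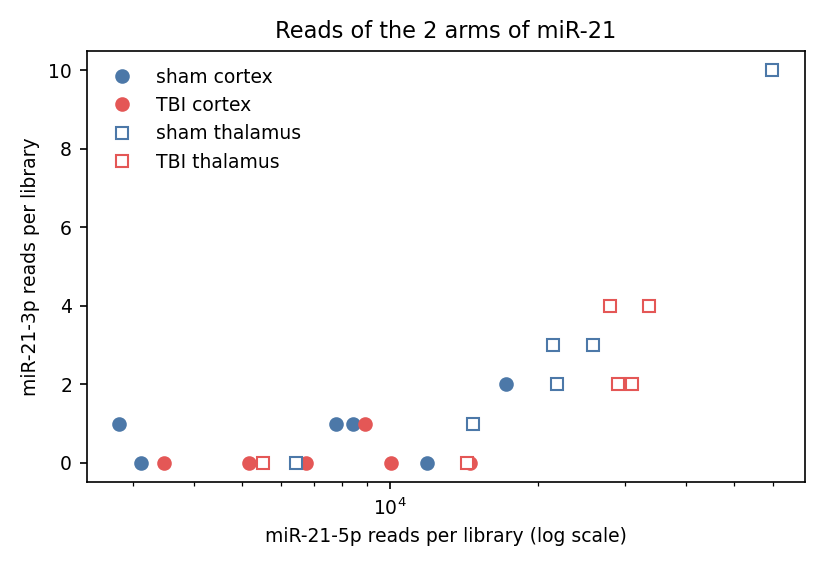
Reads of miR-21-3p (linear axis) against reads of miR-21-5p (log axis) in each of the 24 libraries, with filled circles for cortex, open squares for thalamus, blue for sham and red for TBI. miR-21-3p stays between 0 and 10 reads, and the library with 10 is the one with the most miR-21-5p reads, 59777.

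Too few reads fell on miR-21-3p for it to pass the filter on low counts in any comparison. Fitted without the filter, its log2 fold changes, TBI against sham, were -1.76 in cortex (adjusted p = 0.354 in edgeR) and -0.59 in thalamus (adjusted p = 0.778 in edgeR). Those of cortex against thalamus were -1.26 in sham (adjusted p = 0.172 in edgeR) and -2.44 in TBI rats (adjusted p = 0.0644 in edgeR). With 1 to 19 reads a group these fits carry little information.

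The log2 ratio of miR-21-5p to miR-21-3p, with 0.5 added to each count, needs no scaling between libraries. It differed by 0.99 between TBI and sham cortex (means 13.58 and 12.59, exact permutation test, two-sided, p = 0.128) and by 0.48 in thalamus (13.47 and 12.99, exact permutation p = 0.214). Between cortex and thalamus of a rat it differed by -0.39 in sham (exact permutation p = 0.531) and by 0.11 in TBI rats (exact permutation p = 0.75). Where miR-21-3p is at 0, this ratio follows the reads of miR-21-5p alone. Without sham rat 38, 1 of the 2 sham libraries at 0, the cortical difference was 1.38 (exact permutation p = 0.0173). That was the lowest p of 12 such tests, of which the other 11 did not pass, and the highest was 0.255.

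Relations across the 6 rats of a group were computed for 10 pairs, and none passed after adjustment. miR-21-5p ran against miR-146a-5p in sham cortex with r = -0.86 and an exact permutation p of 0.0167, which was 0.167 after adjustment. The rho was -0.83, with an exact permutation p of 0.0583 that became 0.292, and r was -0.65 without the 2 libraries farthest from the median. Scaled by library size only, r was -0.58 there (exact permutation p = 0.222). In the other groups r was -0.08 in TBI cortex, 0.02 in sham thalamus and -0.64 in TBI thalamus (exact permutation p from 0.0889 to 0.981). The last was -0.795 with library size only (exact permutation p = 0.0194, adjusted p = 0.153).

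miR-21-5p in cortex and in thalamus of the same rat had r = 0.80 in TBI rats, with an exact permutation p of 0.05 that became 0.25 after adjustment. The rho there was 0.89, with an exact permutation p of 0.0333 that became 0.292, and r was 0.63 without the 2 farthest. Scaled by library size only, r in TBI rats was 0.84 (exact permutation p = 0.0306, adjusted p = 0.153). In sham rats r was -0.66 (exact permutation p = 0.15, rho = -0.66, exact permutation p = 0.175) and 0.16 without the 2 farthest. With library size only r in sham rats was -0.02 (exact permutation p = 0.942), so that relation depended on those 2 libraries and on the scaling. The 4 relations with miR-21-3p rest on 1 to 19 reads a group and are not described further.

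To find miRNAs that vary like miR-21-5p from library to library, deviations from the 4 group means were correlated over 24 libraries with those of 291 miRNAs of at least 50 counts on average. The 5 most alike were miR-9a-5p (r = 0.90), miR-708-3p (r = 0.83), miR-192-5p (r = 0.82), miR-340-3p (r = 0.78) and miR-101b-3p (r = 0.78), against a median r of 0.01. Their mature sequences, with the seed in capitals, show that none shares the seed of miR-21-5p.
miR-9a-5p: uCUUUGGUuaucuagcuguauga
miR-708-3p: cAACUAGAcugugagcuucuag
miR-192-5p: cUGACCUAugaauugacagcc
miR-340-3p: uCCGUCUCaguuacuuuauagcc
miR-101b-3p: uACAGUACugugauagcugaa
Split by region, r for miR-9a-5p, a miRNA of neural progenitors and neurons, was 0.89 in cortex and 0.93 in thalamus. The 5 were picked from these same libraries, so the split is no separate check. With library size only, r for miR-9a-5p was 0.82, and 3 of the 5 were still among the 5 most alike.

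These correlations are descriptions, since all points share their libraries and scaling. The 5 miRNAs had between 34.8% and 47.6% G or C, where the median of 263 miRNAs with a RefSeq sequence was 47.6%. Across those miRNAs, likeness to miR-21-5p and G or C content had r = -0.12 with TMM and -0.40 with library size only. Levels of the 5 did not follow the regional pattern of miR-21-5p as a group: miR-9a-5p was higher in sham cortex, 119650 ± 19727 CPM, than in sham thalamus, 73804 ± 8057 CPM, and miR-192-5p was lower, 559.5 ± 154 CPM against 867 ± 309 CPM (SD, n = 6). In edgeR these sham differences, cortex against thalamus, were 0.64 (adjusted p = 0.00189) and -0.68 (adjusted p = 0.0473) on the log2 scale.

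List members were placed on the same measure. The neuronal list was mixed with TMM: r was 0.898 for miR-9a-5p, 0.762 for miR-128-3p, 0.234 for miR-9a-3p, 0.0951 for miR-138-5p and -0.485 for miR-124-3p. With TMM the 3 oligodendrocyte miRNAs had r of 0.17 to 0.35. With library size only, r was -0.31 for miR-219a-2-3p, 0.54 for miR-219a-5p and 0.28 for miR-338-3p. For the leukocyte miRNAs r with TMM was 0.09 for miR-142-3p, -0.32 for miR-142-5p and -0.45 for miR-150-5p. In the inflammation list, with TMM, r was 0.72 for miR-146b-5p, -0.49 for miR-146a-5p and -0.72, the lowest, for miR-221-3p. Scaled by library size only, these were 0.43, -0.56 and -0.37, and miR-146a-5p was the lowest. For miR-21-3p the 5 most alike were miR-339-5p, miR-140-5p, let-7i-3p, miR-19b-3p and miR-434-3p, with r of 0.69 to 0.78, values that rest on 37 reads in all.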

How the data were processed

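Small RNA was sequenced by a service provider from 12 cortical and 12 thalamic samples, 1 library per rat and region, with no pooling across rats (RNA from several pieces of a region was joined within a rat). Per the study's methods, libraries were made with a NEBNext kit, size-selected, trimmed of adapters, checked with FastQC, mapped to the rat genome RGSC3.4 and annotated with miRBase release 20. The aligner is not given in the sources used here. The authors deposited raw read counts per miRNA (and per tRNA feature), which were used as deposited. Their normalised tables of the same libraries were not used.

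Counts of the 728 miRNAs were tested with edgeR 4.0.16 (R 4.3.3), by filterByExpr, TMM, glmQLFit and glmQLFTest, separately per comparison, with Benjamini-Hochberg adjustment over all miRNAs tested and a threshold of 0.05. Standard errors were the absolute log2 fold change over the square root of F, and 95% intervals used the moderated degrees of freedom. CPM used TMM factors over all 24 libraries. DESeq2 1.42.0 was an alternative. Single values were compared by exact permutation tests (scipy 1.17.1). Log2 CPM used a prior count of 1, and shares have exact binomial (Clopper-Pearson) intervals. Replicates were separate rats. Rat numbers in the labels join the cortex and thalamus of 1 animal: deviations from the group means correlated with a median of 0.51 within rats (-0.356 to 0.774, over 0.1 in 8 of 12) and -0.07 between rats.

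The members and lists were chosen with earlier results of these data known. Named miRNAs were both arms, the 5 most alike to each arm, list members that passed in TBI against sham or were the 2 most abundant of their list, and rank neighbours. Several forms of the edgeR fit (robust or not, library sizes recomputed or kept after the filter) were compared by their counts of calls. The plan named the functions and not these options, and their default form was kept: it called 21 miRNAs in cortex and the robust form 22. On simulated counts the fit recovered 91.6% of miRNAs changed by a log2 fold of 1 in the cortical comparison (355 tested), 92.8% in the thalamic one (378 tested) and 91.8% between regions in sham (369 tested). In the cortical simulation 95 miRNAs were changed by a log2 fold of 1 and 93 by 2, where the data gave 21 calls. All simulated miRNAs had the same spread, so these shares are not the power of the real comparisons. Sequences and coordinates were taken from RefSeq (GRCr8), which is not the build the reads were mapped to.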

Additional observations from a re-analysis of the deposited data

Results flagged for a closer look

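In groups of 6, a library was singled out where its gap to the next, over the group's whole range, exceeded Dixon's 95% critical value. Of 18 groups examined 4 were. Chance would give about 0.9 with independent, normally distributed values. These sets share rats and include read counts near 0, so no excess can be read from that number. In sham cortex rat 55 had the lowest share of miR-21-5p, 0.32% of miRNA reads, with the next library at 0.406% (gap over range 0.72). The same sham rat had the highest ratio of thalamic to cortical miR-21-5p in normalised CPM, 4.145, with the next at 2.563 (0.635), and its thalamic library was the shallowest of all with 523298 reads. In TBI cortex rat 24 held 1 read of miR-21-3p where the other libraries held 0, a pattern that any lone read would give. In sham thalamus rat 34 held 10 reads of miR-21-3p, the next library 3 (0.7), and it was also the deepest library with 4139901 reads.

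The log2 ratio of thalamus to cortex differed between TBI and sham rats on shares of miRNA reads, by -0.335 (exact permutation test, two-sided, p = 0.0346), and not in normalised CPM, by -0.081 (exact permutation p = 0.792). The cause was not tested.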

How the results depend on the processing

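miR-21-5p kept its direction and its call between regions under all 8 alternatives in each group, with log2 fold changes of -1.57 to -1.15 in sham and -1.26 to -1.03 in TBI rats, and with each library left out (-1.3 to -1.03 and -1.32 to -1.02). No alternative called it for TBI against sham or for the interaction. With library size only the cortical value turned to 0.21. Without single libraries it ran from -0.144 to 0.0541 in cortex, from -0.107 to 0.0709 in thalamus and from -0.0846 to 0.114 for the interaction, turning sign in 4 of 12, 3 of 12 and 6 of 24 fits. The arm ratio ran from 0.643 to 1.38 and from 0.215 to 0.656 for TBI against sham in cortex and thalamus, and from -0.809 to 0.0837 and from -0.112 to 0.267 between regions in sham and TBI. With 1 added to each count it was -0.32 between regions in TBI. Without single rats, the TBI minus sham difference of the log2 ratio of regions in normalised CPM ran from -0.166 to 0.0992, the highest without sham rat 55. Calls on the inflammation and scar lists numbered 4, with DESeq2 8 and with library size only 7. With library size only, r of miR-21-5p in sham thalamus was 0.366 with miR-21-3p and -0.755 with miR-146a-5p, and again none of the 10 relations passed.

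The count of miRNAs called in cortex, 21, was 41 with DESeq2, 39 with library size only (36 higher, 3 lower), 5 in the fit of all 24 libraries and 0 with 4 reference miRNAs as scale, and 4 to 30 without single libraries (4 to 12 without sham rat 26, 32, 38 or 50 or TBI rat 24, 45 or 52, the lowest without sham rat 38). In thalamus, 2 became 0 with the reference miRNAs, 3 with DESeq2, 5 in the fit of all libraries, and 0 to 2 without single libraries. Between regions in sham, 91 became 147 with library size only (22 higher, 125 lower) and 140 without the thalamic library of rat 55. The rat as replicate block gave -1.20 in sham, -1.20 in TBI and 0.08 for the interaction, and changed no call of miR-21-5p. The robust fit and the recomputed library sizes were added after seeing the data, as were the permutation tests of read shares and of the ratio of regions between TBI and sham rats, with and without single rats. miR-21-3p has no value under most alternatives, since the filter removed it. The cause of these changes was not tested. The depth of miR-21-3p, at most 10 reads a library, limits every statement on it.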
